A study of Homo sapiens with 4 samples.

Results

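In K562 cells transfected with RUNX1::ERG, the endothelial adhesion gene PECAM1 and the VEGF receptor gene FLT1 rose, ROBO4 rose from near 0 counts, and KDR and TEK stayed at the limit of detection. The rise of PECAM1 passed the test under every setting tried, and those of FLT1 and ROBO4 failed it under some. ROBO4 entered the test through the RUNX1::ERG libraries alone, so its call is no evidence of direction. These genes belong to a set of 10 endothelial genes known as targets of the ETS factors ERG and FLI1. The 10 are KDR, FLT1, TEK, TIE1, CDH5, PECAM1, ENG, ESAM, CLDN5 and ROBO4. They were chosen by name and found by NCBI gene number, and are 10 of the 25702 genes counted. K562 is an established line from human chronic myeloid leukemia. One group received the LeGO-iG2 plasmid encoding RUNX1::ERG and GFP, and the control group received the empty LeGO-iG2 vector, with 2 replicate libraries in each, biological replicates by the study's description, and no drug treatment. The fusion carries the Runt domain of RUNX1 and the ETS domain of ERG, both of which bind DNA. Transfection was transient, and whether GFP-positive cells were sorted before RNA extraction is not given in the sources used here. Each library is a bulk average, so a change in the number of cells that express a gene and a change in RNA per cell cannot be told apart.

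ETS factors bind DNA at sites with a GGAA core. In endothelial cells, ERG and FLI1 sit at promoters and enhancers of genes for the receptors and junction proteins that define the vessel wall. Several of these proteins are not limited to endothelium, and PECAM1 and ESAM are also found on megakaryocytes and platelets.

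Promoter sequences were taken from a RefSeq table (GRCh38.p14, while the reads were aligned to hg19), which matched 6 of the 10 genes: KDR, FLT1, TEK, TIE1, ENG and ROBO4. CDH5, PECAM1, ESAM and CLDN5 had no entry. The 250 bases before the annotated start, 5′ to 3′ on the strand of the gene, are shown for FLT1 and ROBO4, which rose, for ENG, which did not pass the test, and for KDR, which was at the limit of detection. Capitals mark each GGAA core, written TTCC where it lies on the opposite strand. All 4 genes are on the minus strand, at chr13:28495129-28495378 for FLT1, chr11:124897866-124898115 for ROBO4, chr9:127854659-127854908 for ENG and chr4:55125596-55125845 for KDR.
FLT1: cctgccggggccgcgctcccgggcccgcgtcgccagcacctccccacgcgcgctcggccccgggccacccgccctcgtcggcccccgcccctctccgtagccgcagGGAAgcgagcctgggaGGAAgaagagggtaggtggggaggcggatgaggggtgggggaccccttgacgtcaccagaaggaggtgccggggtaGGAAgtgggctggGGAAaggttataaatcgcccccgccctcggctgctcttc
ROBO4: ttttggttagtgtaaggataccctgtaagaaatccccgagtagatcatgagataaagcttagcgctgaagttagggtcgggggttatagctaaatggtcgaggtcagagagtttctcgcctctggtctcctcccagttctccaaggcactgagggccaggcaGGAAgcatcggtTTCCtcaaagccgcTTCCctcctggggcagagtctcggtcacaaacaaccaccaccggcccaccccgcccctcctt
ENG: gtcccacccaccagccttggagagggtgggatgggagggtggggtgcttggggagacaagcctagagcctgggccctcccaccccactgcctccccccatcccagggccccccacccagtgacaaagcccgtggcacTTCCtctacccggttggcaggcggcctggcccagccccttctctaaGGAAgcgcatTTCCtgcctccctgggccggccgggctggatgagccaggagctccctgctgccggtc
KDR: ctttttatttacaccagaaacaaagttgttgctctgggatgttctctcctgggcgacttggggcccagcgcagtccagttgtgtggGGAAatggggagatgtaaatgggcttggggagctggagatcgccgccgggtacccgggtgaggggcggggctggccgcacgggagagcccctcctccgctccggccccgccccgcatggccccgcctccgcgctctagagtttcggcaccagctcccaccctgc

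Both strands were searched for GGAA, for the longer ETS match AGGAAG, which contains it, for CGGAAG, which also contains it, for the RUNX match TGTGGT and for the GATA match AGATAA. FLT1 held 4 GGAA cores, of which 2 were in AGGAAG. ROBO4 held 3 cores, 1 of them in AGGAAG, and 1 AGATAA. ENG held 3 cores, 2 of them in AGGAAG, and TIE1 held 4 cores, 1 of them in AGGAAG. KDR held 1 core and no AGGAAG. TEK, which has 2 entries that overlap in part, held 3 and 6 cores, no AGGAAG, and 1 AGATAA in the second. CGGAAG and TGTGGT were in none of these windows. Among all 35116 promoters of the same length, 92.7% held GGAA with a median of 3 cores, 28.7% held AGGAAG, 16.5% CGGAAG, 11% TGTGGT and 9.17% AGATAA. The match AGGAAG was present both before genes that rose and before ENG and TIE1, which did not pass the test. These matches describe letters in a short window and not bound sites.

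The counts per library summed to between 59695387 and 82352144. Levels are given as counts and as normalized CPM, the counts relative to library size after TMM scaling by edgeR. A count of 0 allows up to 3 counts, or 0.0356 to 0.0498 normalized CPM in these libraries, for counting error only. Of the counts from 1 to 10, 66.7% to 68.9% per library were even. Whether both mates of a pair were counted is not given in the sources used here, and halved counts were tried as an alternative. Replicates differed beyond sampling noise, at a chi-square of 88.7 per degree of freedom with the empty vector and 67.6 with RUNX1::ERG. Groups were compared with edgeR (quasi-likelihood), and p-values were adjusted after Benjamini and Hochberg over the 15394 genes left after filtering on low counts, with 0.05 as the threshold. Fold changes are given on the log2 scale with their standard error after the ± sign, RUNX1::ERG against empty vector. For 1 gene alone, the smallest p of an exact permutation test in this design is 0.333. The labels were checked on ERG, at 4 counts in both controls, 80443 in RUNX1::ERG replicate 1 and 27218 in replicate 2, and on RUNX1, whose log2 fold change was 3.22 ± 0.32 (edgeR, adjusted p = 0.00036).

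Of the 10 genes, 8 passed the filter, and KDR and TEK did not. CDH5 and ROBO4 passed it through the RUNX1::ERG libraries alone, so that a count over the tested genes is no evidence of direction. PECAM1, FLT1 and ROBO4 rose past the threshold and none fell past it by edgeR, where 4.79% of all tested genes were called, 3.64% higher and 1.15% lower. For PECAM1, FLT1, ROBO4, CDH5, ESAM and CLDN5, 6 of the 8 tested, both RUNX1::ERG values lay above both control values. The same held for 25.1% of all tested genes, while 22.1% of those showed the reverse. At an unadjusted p under 0.05, edgeR gave 4 higher and 0 lower, beside 10.7% and 7.26% of all tested genes. The DESeq2 Wald test called 3 higher and 0 lower, beside 4.99% and 2.51% of the genes it gave an adjusted p, and limma voom called 2 higher and 0 lower, beside 3.48% and 0.994%.

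**Figure D1:**
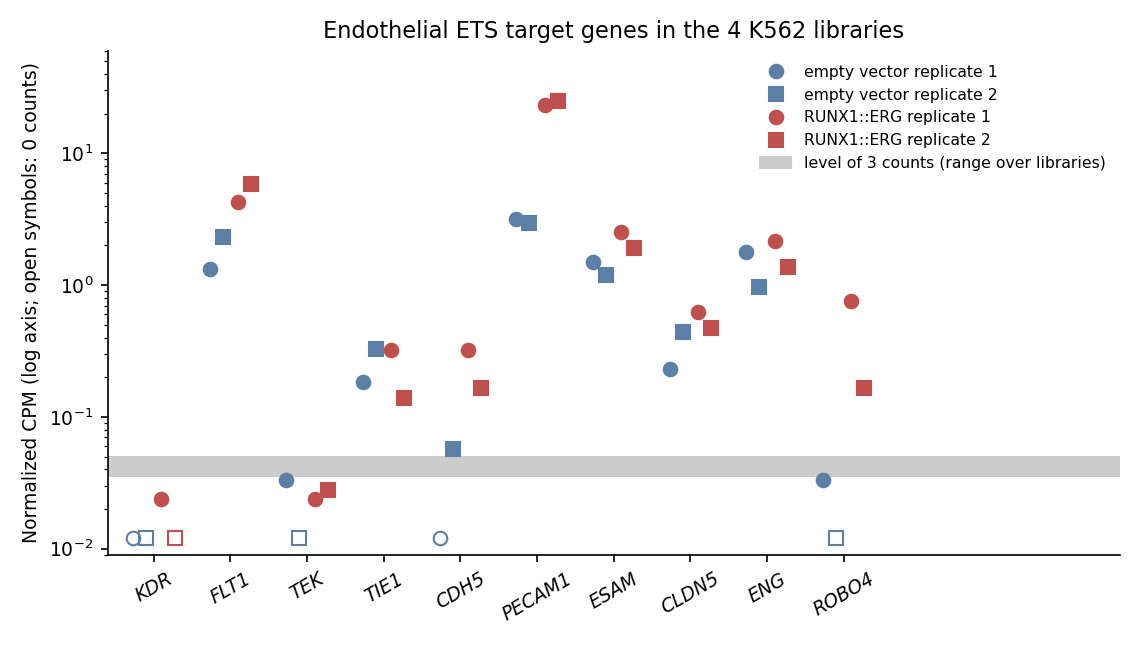
Normalized CPM of the 10 genes in each library on a log axis, with empty vector in blue, RUNX1::ERG in red, replicate 1 as circles and replicate 2 as squares. Open symbols at the lower edge stand for 0 counts and the grey band for the level of 3 counts. PECAM1 stands highest with RUNX1::ERG, at 23.3 and 24.8, and KDR and TEK lie under the band in every library.

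Of the VEGF receptors, FLT1 rose and KDR was not detected above the floor. FLT1 encodes VEGFR1, a receptor for VEGFA, VEGFB and PGF that also exists as a soluble decoy, and counts per gene do not separate its forms. FLT1 (NCBI gene 2321, chromosome 13 of GRCh37, 28874483 to 29069282) had 80 and 164 counts with the empty vector and 363 and 420 counts with RUNX1::ERG. Both RUNX1::ERG libraries were above both empty vector libraries. Normalized CPM was 1.83 ± 0.705 (SD, n = 2) with the empty vector and 5.07 ± 1.09 (SD, n = 2) for the fusion. Its log2 fold change was 1.47 ± 0.35 (edgeR, adjusted p = 0.0403). The call was lost without RUNX1::ERG replicate 1 (adjusted p = 0.0626) and without RUNX1::ERG replicate 2 (adjusted p = 0.183), with log2 fold changes of 1.67 and 1.22 by edgeR.

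KDR encodes VEGFR2, the main signalling receptor for VEGFA in endothelium. KDR (NCBI gene 3791, chromosome 4, 55944648 to 55991762) had 0 counts in both empty vector libraries and 2 and 0 counts in the 2 RUNX1::ERG libraries. No expression of KDR was detectable at this depth in either group, and no fold change is given. FLT4, the VEGFC receptor VEGFR3 and not one of the 10 genes, had 56 and 11 counts with the empty vector and 487 and 234 with RUNX1::ERG. Its log2 fold change was 3.08 ± 0.63 (edgeR, adjusted p = 0.0208). The value was 4.84 without empty vector replicate 1 and 2.28 without replicate 2, and the DESeq2 Wald test did not call it (adjusted p = 0.085).

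Of the angiopoietin receptors, TEK was at the limit of detection, and TIE1 was low but above the floor in every library. TEK encodes TIE2, the receptor for ANGPT1 and ANGPT2. TEK (NCBI gene 7010, chromosome 9, 27109139 to 27230172) had 2 and 0 counts with the empty vector and 2 and 2 counts with RUNX1::ERG, at or under the floor of 3 counts in every library. TIE1, the partner of TIE2 in the receptor complex (NCBI gene 7075, chromosome 1, 43766653 to 43788779), had 11 and 23 counts with the empty vector and 27 and 10 counts with RUNX1::ERG. The groups overlapped, and the log2 fold change was -0.14, with a 95% interval from -1.65 to 1.36 and an adjusted p of 0.952 by edgeR. Its sign turned when empty vector replicate 2 (0.34) or RUNX1::ERG replicate 2 (0.31) was left out.

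Among the junction and adhesion genes, PECAM1 rose past the threshold and CDH5, ESAM and CLDN5 did not pass it. PECAM1 encodes CD31, an adhesion molecule of the immunoglobulin family at contacts between endothelial cells. PECAM1 (NCBI gene 5175) had 192 and 210 counts with the empty vector and 1964 and 1780 counts with RUNX1::ERG. The replicates lay close together in each group, and the groups were far apart. Normalized CPM went from 3.08 ± 0.148 (SD, n = 2) to 24.0 ± 1.04 (SD, n = 2), which is a log2 fold change of 2.96 ± 0.22 (edgeR, adjusted p = 5.8e-05). The call was kept in all 12 alternative settings, with log2 fold changes from 2.91 to 3.01. PECAM1 was not placed on GRCh37 here, so its position and level per kilobase are not given.

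CDH5 encodes VE-cadherin, the cadherin of endothelial adherens junctions. CDH5 (NCBI gene 1003, chromosome 16, 66400593 to 66438687) had 0 and 4 counts with the empty vector and 27 and 12 counts with RUNX1::ERG. The groups did not overlap, but the counts are few. Over each group the counts were 4 and 39, a normalized ratio of 8.16 (95% exact interval 2.94 to 31.4 for counting error only). The log2 fold change was 2.96 ± 1.04, and it did not pass the threshold with an adjusted p of 0.152 by edgeR. Of 11 alternative settings, the gene was called only without empty vector replicate 2 (log2 fold change 7.16, adjusted p = 0.0137), which leaves the empty vector at 0 counts.

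ESAM and CLDN5 were higher in both RUNX1::ERG libraries without passing the test. ESAM, an adhesion molecule at endothelial tight junctions (NCBI gene 90952, chromosome 11, 124622479 to 124632186), had 90 and 84 counts with the empty vector and 213 and 138 with RUNX1::ERG. Its log2 fold change was 0.73, with a 95% interval from -0.06 to 1.52 and an adjusted p of 0.326 by edgeR. CLDN5, the main claudin of endothelial tight junctions (NCBI gene 7122, chromosome 22, 19510547 to 19515068), had 14 and 31 counts with the empty vector and 53 and 34 with RUNX1::ERG. Its log2 fold change was 0.70, with a 95% interval from -0.54 to 1.95 and an adjusted p of 0.584 by edgeR. Neither was called in any of the 12 alternative settings.

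ENG encodes endoglin, a co-receptor for BMP9, BMP10 and TGF-beta. ENG (NCBI gene 2022, chromosome 9, 130577292 to 130616937) had 107 and 68 counts with the empty vector and 183 and 98 with RUNX1::ERG. Normalized CPM was 1.37 ± 0.574 (SD, n = 2) and 1.77 ± 0.571 (SD, n = 2), and the groups overlapped. The log2 fold change was 0.37, with a 95% interval from -0.57 to 1.31 and an adjusted p of 0.731 by edgeR. Its sign turned when empty vector replicate 2 (-0.0056) or RUNX1::ERG replicate 1 (-0.0045) was left out.

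ROBO4 encodes an endothelial member of the Roundabout receptors, which stabilizes vessels. ROBO4 (NCBI gene 54538, chromosome 11, 124753587 to 124768396) had 2 and 0 counts with the empty vector and 64 and 12 counts with RUNX1::ERG. Both RUNX1::ERG libraries were above the empty vector, and replicate 1 was far above replicate 2. Over each group the counts were 2 and 76, a normalized ratio of 31.8 (95% exact interval 8.51 to 267 for counting error only). The log2 fold change was 4.77 ± 1.17 (edgeR, adjusted p = 0.0454). ROBO4 passed the filter through the RUNX1::ERG libraries alone, so this call is no evidence of direction. The call was lost without RUNX1::ERG replicate 1 (3.28, adjusted p = 0.407), with library totals alone (adjusted p = 0.0604), with halved counts (adjusted p = 0.0511) and with limma voom (adjusted p = 0.0526), and without empty vector replicate 1, which leaves that group at 0 counts, the fitted value was 8.15. Leaving out empty vector replicate 2 gave 3.75, and leaving out RUNX1::ERG replicate 2 gave 5.45. Antisense genes span 2840 and 720 bases of the ROBO4 exons, 2462 of those of KDR, 991 of those of ENG and 206 of those of ESAM. The strand setting of the counting is not given in the sources used here, so reads of these genes and of their antisense partners cannot be told apart.

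**Figure D2:**
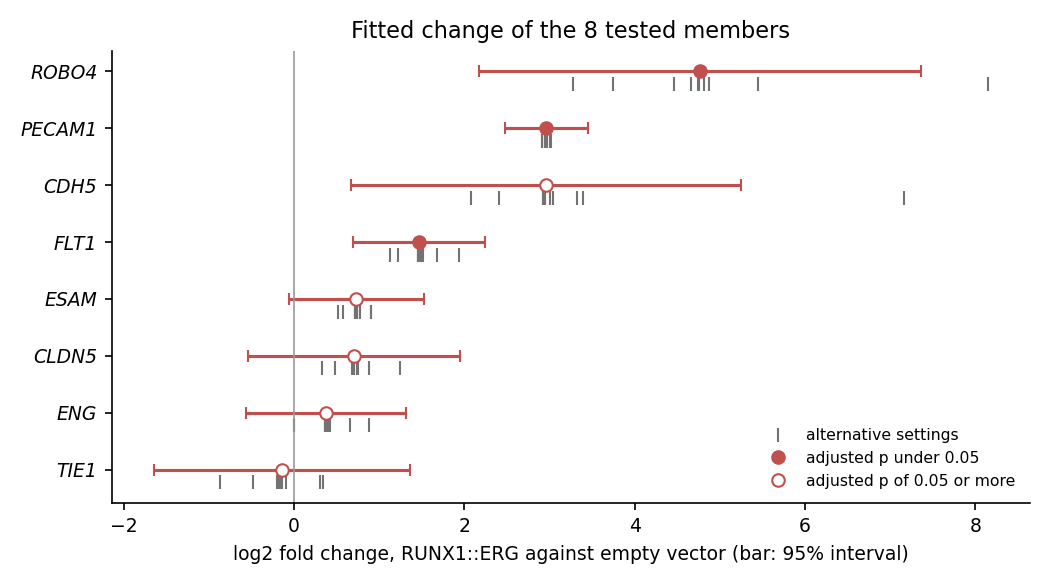
Fitted log2 fold change of the 8 tested genes with its 95% interval, RUNX1::ERG against empty vector. Filled points passed an adjusted p of 0.05 and grey ticks are the alternative settings, which lie close together for PECAM1 (2.91 to 3.01) and far apart for ROBO4 (3.28 to 8.15).

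Within the RUNX1::ERG group, replicate 1 had more ERG than replicate 2, and the target genes did not share one pattern. The ratio of replicate 1 to replicate 2 in normalized CPM was 2.52 for ERG and 1.96 for RUNX1, whose counts include the cells' own RUNX1. The ratio was 4.55 for ROBO4, 2.30 for TIE1, 1.92 for CDH5 and 1.59 for ENG. It was 1.33 for CLDN5, 1.32 for ESAM, 0.941 for PECAM1 and 0.737 for FLT1. With the empty vector the ratio was 1.84 for ENG, 1.61 for RUNX1, 1.25 for ESAM and 1.07 for PECAM1. For FLT1, TIE1 and CLDN5 it was 0.571, 0.56 and 0.529 in that group. ENG, RUNX1, ESAM and FLT1 thus leaned the same way without the fusion, and PECAM1, TIE1 and CLDN5 did not. With 1 library at each level, these ratios are a description without a test. The RUNX1::ERG ratios of ROBO4, TIE1 and CDH5 rest on 10 or 12 counts in replicate 2.

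Levels between genes were compared per kilobase of the union of exons, for the 9 genes placed on GRCh37. With the empty vector the order was ESAM (0.460 ± 0.0734 normalized CPM per kilobase, SD, n = 2), ENG (0.357 ± 0.150), FLT1 (0.145 ± 0.0561) and CLDN5 (0.0980 ± 0.0427). With RUNX1::ERG it was ESAM (0.761 ± 0.147), ENG (0.460 ± 0.149), FLT1 (0.404 ± 0.0864) and CLDN5 (0.161 ± 0.0321). With the empty vector, ESAM and ENG overlapped, as did FLT1 and CLDN5, and with RUNX1::ERG, ENG and FLT1 overlapped, so these neighbours did not differ beyond their spread. FLT1 passed ENG when the longest transcript was used as the length, at 0.712 against 0.578 with RUNX1::ERG. ROBO4, CDH5 and TIE1 followed with RUNX1::ERG at 0.0699 ± 0.0633, 0.0405 ± 0.0180 and 0.0343 ± 0.0191, in overlapping ranges, and TEK and KDR were lowest.

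**Figure D3:**
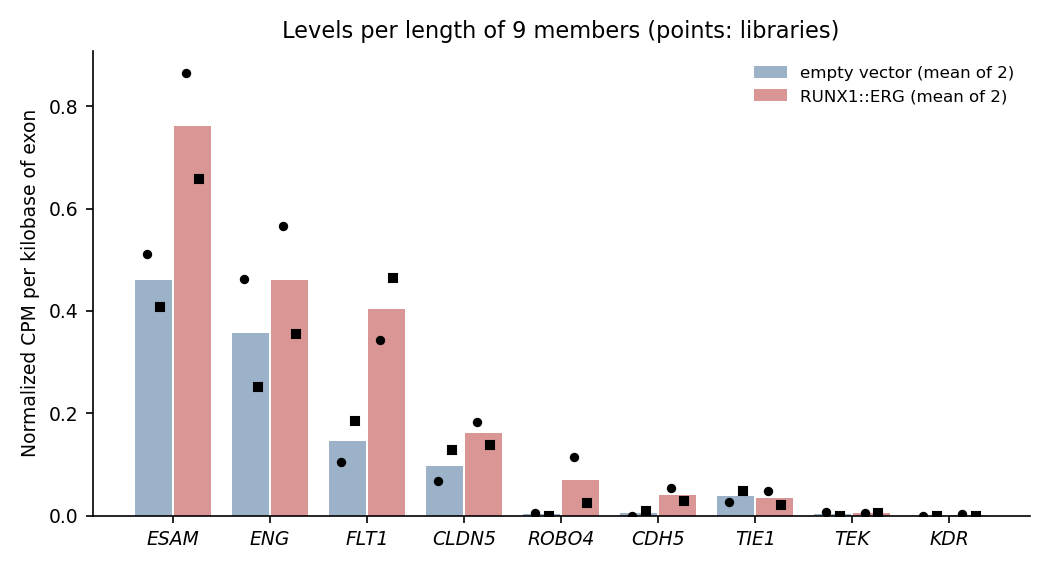
Mean normalized CPM per kilobase of exon of 9 genes in 2 libraries per group, empty vector in blue and RUNX1::ERG in red, with replicate 1 as circles and replicate 2 as squares. ESAM is the highest of the 9 in both groups (0.460 and 0.761), and TEK and KDR lie at the base line.

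The partners of these genes were followed in 7 lists written from general knowledge, with earlier results of these data known. For every count of edgeR calls in them, the shares of all tested genes were 3.64% higher and 1.15% lower. In the VEGF list, FLT4 was the 1 gene called of 5 tested among 8. In the angiopoietin list of 4 genes, of which 3 were tested, ANGPT1, the activating ligand of TIE2, rose, from 73.3 ± 6.48 up to 154 ± 14.6 (SD, n = 2) in normalized CPM, and its log2 fold change was 1.07 ± 0.16 (edgeR, adjusted p = 0.0041). The ligand was thus expressed in cells whose TEK counts were at or under the floor. None of the 10 tested junction partners among 12 was called by edgeR, DESeq2 or limma voom. At an unadjusted edgeR p under 0.05, 3 were higher and 0 lower, beside 10.7% and 7.26% of all tested genes. VCL, the vinculin gene, had the highest mean level over the 4 libraries, at 352 ± 5.11 and 496 ± 49.4 (SD, n = 2) normalized CPM, with a log2 fold change of 0.49 and an adjusted p of 0.0878 from that test. CD99, an adhesion gene singled out after its values were seen, had 62, 63 and 53 counts in 3 libraries and 1917 in RUNX1::ERG replicate 1, and its log2 fold change of 3.61 became -0.38 without that library.

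Of the 9 tested genes among 10 of the endoglin complex and its signalling chain, ACVRL1 and BMP10 rose. ACVRL1 encodes ALK1, the receptor with which endoglin binds BMP9 and BMP10. It had 57 and 40 counts with the empty vector and 423 and 295 with RUNX1::ERG, and its log2 fold change was 2.60 ± 0.37 (edgeR, adjusted p = 0.0029). BMP10, a ligand of that receptor, had 65 and 77 counts against 281 and 239, with a log2 fold change of 1.61 ± 0.33 (edgeR, adjusted p = 0.02), and its call was lost without RUNX1::ERG replicate 1 (adjusted p = 0.11) or replicate 2 (adjusted p = 0.0695). In the list of SLIT and ROBO genes, edgeR called 1 of 6 tested among 7. This was SLIT3, a secreted ligand of Roundabout receptors, with 4 and 0 counts against 59 and 64, a normalized ratio of 25.7 (95% exact interval 9.80 to 96.0 for counting error only) and an adjusted p of 0.0162 from edgeR's test. SLIT3 passed the filter through the RUNX1::ERG libraries alone, and without empty vector replicate 1 its fitted log2 fold change went from 4.60 to 8.91, and to 3.55 without replicate 2. In the same list 2 genes, named after their values were seen, were lower at an unadjusted edgeR p under 0.05. Of all tested genes, 7.26% were lower at that p. UNC5B, a netrin receptor, had a log2 fold change of -1.59 ± 0.45 (edgeR, adjusted p = 0.0735) and was called lower by DESeq2 (adjusted p = 0.0045), and ROBO3, a Roundabout receptor of axon guidance, had -1.94 ± 0.69 (edgeR, adjusted p = 0.159). Both had lower values in both RUNX1::ERG libraries than in either control, and limma voom called neither.

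Of 16 tested endothelial transcription factors among 19, 3 rose and 1 fell past the threshold by edgeR, beside 3.64% and 1.15% of all tested genes. The fitted change was above 0 for 7 of the 16 and below 0 for 9. ETV6, an ETS repressor, rose by a log2 fold change of 1.27 and MEF2C, a MADS-box factor, by 0.87, with adjusted p-values of 0.0088 and 0.009 by edgeR. TAL1, a helix-loop-helix factor of blood and endothelium, was the third, at 0.68 (edgeR, adjusted p = 0.0246). HHEX, a homeobox factor of blood and endothelial progenitors, fell from 108 ± 19.2 to 45.8 ± 2.78 (SD, n = 2) in normalized CPM, and its log2 fold change was -1.24 ± 0.18 (edgeR, adjusted p = 0.0029). Without RUNX1::ERG replicate 1 the calls of ETV6 (adjusted p = 0.0696) and TAL1 (0.124) were lost, and that of TAL1 was also lost without replicate 2 (0.0653).

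Of the 16 tested genes among 20 other endothelial ETS targets, 5 rose and none fell past the threshold by edgeR, beside 3.64% and 1.15% of all tested genes. At an unadjusted edgeR p under 0.05, 8 were higher and 2 lower, beside 10.7% and 7.26% of all tested genes. DESeq2 called 7 higher and 1 lower, beside 4.99% and 2.51% of the genes it gave an adjusted p. The limma voom counts were 5 and 0, beside 3.48% and 0.994% of all tested genes. Of the 16, 4 passed the filter through the RUNX1::ERG libraries alone. Among these 4 were VWF, ECSCR and ARHGEF15, all of them called, so those calls are no evidence of direction. ECSCR, an endothelial surface protein, had 0 counts in both empty vector libraries and 45 and 39 with RUNX1::ERG, at least 23.4-fold higher against a floor of 3 counts over the empty vector group, with the RUNX1::ERG counts taken as measured (adjusted p = 0.0059 from edgeR's test). The 95% exact interval, which also covers the counting error of RUNX1::ERG, starts at 18.6-fold. ARHGEF15, an endothelial RhoA exchange factor, had 0 counts in both against 23 and 29, at least 14.5-fold higher on the same terms (edgeR, adjusted p = 0.0162), with an exact interval that starts at 11.4-fold. The other called genes were VWF, PROCR and MMRN2, named after their values were seen. VWF, the von Willebrand factor of endothelium and platelets, had 1 and 8 counts with the empty vector and 311 and 277 with RUNX1::ERG, a log2 fold change of 5.76 ± 0.58 (edgeR, adjusted p = 4e-04). The fitted value of VWF was 7.68 without empty vector replicate 2 and 5.03 without replicate 1. PROCR, the endothelial protein C receptor, and MMRN2, an extracellular matrix protein of vessels, had log2 fold changes of 1.06 and 1.45 (adjusted p = 0.0349 and 0.0168 from the same test), and both calls were lost without RUNX1::ERG replicate 1 (adjusted p = 0.264 and 0.155). NOS3, the endothelial nitric oxide synthase, and EGFL7, a secreted vascular factor, were also named after their values were seen. NOS3 had 51.9 and 44.7 normalized CPM with the empty vector and 32.0 and 27.5 with RUNX1::ERG, a log2 fold change of -0.70 ± 0.18 (edgeR, adjusted p = 0.0537), and was the gene that DESeq2 called lower (adjusted p = 0.0071). EGFL7 had 131 and 158 against 318 and 192, a log2 fold change of 0.82 ± 0.22 (edgeR, adjusted p = 0.0655), and DESeq2 called it higher (adjusted p = 0.0147). EMCN and CLEC14A had 0 counts in all 4 libraries.

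The median log2 fold change of the tested genes was 0.60 in the list of other ETS targets, also with ECSCR and ARHGEF15 at their lower bounds, and from -0.31 in the angiopoietin list to 0.32 in the endoglin list for the other 6 lists, beside -0.002 for all tested genes. In the list of other ETS targets, 4 of the 16 tested genes passed the filter through the RUNX1::ERG libraries alone. Its median is thus no evidence of direction, and the lower bounds do not change that. These medians are descriptions of lists chosen with results known.

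**Figure D4:**
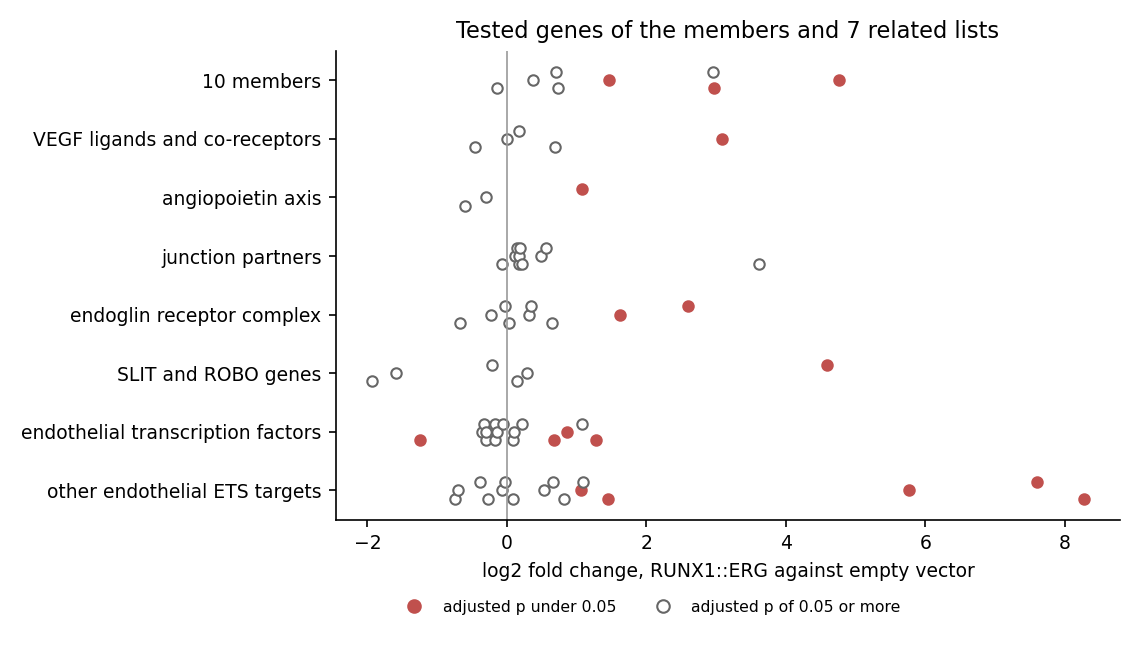
Log2 fold change of the tested genes among the 10 endothelial ETS targets and in 7 related lists, RUNX1::ERG against empty vector. Filled points passed an adjusted p of 0.05, all of them higher except HHEX at -1.24. The 2 points farthest to the right are ARHGEF15 and ECSCR, at 0 counts with the empty vector, whose fitted values are no measure of size.

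Markers of other cell types were measured beside these values. Of all tested genes, edgeR called 3.64% higher and 1.15% lower, and 10.7% and 7.26% had an unadjusted p under 0.05. The shares were 3.48% and 0.994% for limma voom, and 4.99% and 2.51% of the genes that DESeq2 gave an adjusted p. Of 10 megakaryocyte markers, edgeR called 5 of 7 tested higher, beside 3.64% of all tested genes. They were ITGA2B, ITGB3, TUBB1, PF4 and PPBP. PF4 and PPBP passed the filter through the RUNX1::ERG libraries alone, so those 2 calls are no evidence of direction. The summed level of the 10 was 106 normalized CPM in each empty vector library and 534 and 463 in RUNX1::ERG replicates 1 and 2, while GP9 had at most 2 counts. Of 10 general endothelial markers, all of them also in the lists above, edgeR called 2 of 7 tested higher and 0 lower. The 2 were MMRN2 and VWF, of which VWF passed the filter through the RUNX1::ERG libraries alone. DESeq2 called 3 higher and 1 lower, NOS3, limma voom 2 and 0, and at an unadjusted edgeR p under 0.05 there were 4 and 1. PLVAP, at 0.565 and 0.326 against 0.237 and 0.292 normalized CPM, was lower without overlap and not called. The summed level of the 10 was 204 and 222 with the empty vector and 386 and 246 with RUNX1::ERG, most of it from EGFL7, and the 9 others summed to 73.4 and 64.1 against 68.3 and 54.8, with EMCN and CLEC14A at 0 and SOX17 at no more than 2 counts. The 7 monocyte markers summed to 8.83 and 10.8 against 23.5 and 21.3, most of it from LYZ. Of these, 2 of 5 tested were called higher, LYZ and CD14. Without overlap, 4 of the 7 were higher and 1 was lower, beside 25.1% and 22.1% of all tested genes. The lower one was FCGR3A, which was not tested, at 42 and 10 counts against 8 and 3. S100A8 and S100A9 overlapped. The 8 fibroblast markers summed to 6.29 and 6.86 against 25.1 and 22.5, most of it from COL1A1, the 1 gene edgeR called of 4 tested. THY1, with 0 and 0 counts against 14 and 10, was also called higher by limma voom (adjusted p = 0.0144). It passed the filter through the RUNX1::ERG libraries alone, so that call is no evidence of direction. Among the fibroblast markers, LUM was at 0 and PDGFRA at no more than 2 counts. Of the erythroid markers of K562, which summed to between 11800 and 14000, 1 of 10 was called by edgeR, EPOR, the erythropoietin receptor, which rose (0.87, adjusted p = 0.0297, and 0.223 without RUNX1::ERG replicate 1). HBZ, an embryonic globin named after its values were seen, had a log2 fold change of -0.59 (edgeR, adjusted p = 0.05003) and was called lower by DESeq2 and limma voom, and at an unadjusted edgeR p under 0.05 there were 4 erythroid markers higher and 2 lower. No T cell, B cell or epithelial marker was called of 4, 1 and 4 tested by edgeR. DESeq2 called 1 T cell marker higher and 1 lower, and limma voom called none of these 3 lists. At an unadjusted edgeR p under 0.05 there was 1 T cell marker higher and 1 lower, 1 epithelial marker lower and 0 B cell markers. The part of these changes in the values of the endothelial genes was not tested.

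Of the 8 tested genes, ROBO4 had the largest fitted change, and the 3 genes nearest to it in pattern were NMRK2, ALOX15 and ITGAX. ROBO4, NMRK2 and ALOX15 passed the filter through the RUNX1::ERG libraries alone, each with 2 and 0 counts with the empty vector. Likeness was the Euclidean distance of centred log2 CPM over 4 libraries, at 0.543, 0.633 and 0.739. NMRK2, a nicotinamide riboside kinase, had 2 and 0 counts with the empty vector and 40 and 10 with RUNX1::ERG. ALOX15, a lipoxygenase, had 2 and 0 against 37 and 10, and ITGAX, the integrin CD11c, had 15 and 5 against 197 and 59. Of the 3, ITGAX alone passed the threshold, with a log2 fold change of 3.32 (edgeR, adjusted p = 0.0231) that became 2.37 (adjusted p = 0.197) without RUNX1::ERG replicate 1, 4.45 without empty vector replicate 1 and 2.66 without empty vector replicate 2.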

How the data were processed

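Whole transcriptome sequencing was performed on poly(A)-enriched RNA of K562 cells with the empty vector or RUNX1::ERG, 2 libraries in each group. The deposited values are unnormalized counts for each NCBI gene number. Paired-end reads were aligned to hg19, and the submitters' processing notes name HISAT2 2.2.1 and featureCounts 2.0.1, with the annotation, strand and pair settings not given in the sources used here. Gene numbers were joined to RefSeq symbols (GRCh38.p14), which matched 92.2% of 25702 genes, and positions and exon lengths are those of GENCODE on GRCh37.

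Tests were run in R 4.3.3 with edgeR 4.0.16 (TMM, filterByExpr, quasi-likelihood test, no replicate block, Benjamini-Hochberg adjustment). The filter's minimum was 0.138 CPM in 2 libraries. Standard errors are the log2 fold change divided by the square root of F. Alternatives were other scalings, filters, halved counts, DESeq2 1.42.0, limma 3.58.1, a replicate block and each library left out, where the lone library of an arm is assumed to vary like the other group. The procedure was tested on simulated data.

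The genes and lists were chosen with earlier results of these data known. Beside the 10 genes, ERG and RUNX1, the text names from each list the genes past the threshold (if more than 4, the 2 largest rises and falls, and if none, the gene with the highest level) and the 3 genes nearest in pattern to the tested gene of the 10 with the largest change.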

Additional observations from a re-analysis of the deposited data

How the results depend on the processing

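PECAM1 kept its direction and its call under all 12 alternatives, and so did RUNX1. ERG did under the 11 that tested it. FLT1 was called under 10 of 12, ROBO4 under 7 of the 11 that tested it, and TIE1, ENG, ESAM and CLDN5 under none. ROBO4 lost its call with library totals alone (4.81), halved counts (4.66) and limma voom (4.46), and at least 10 counts in every library leaves CDH5 and ROBO4 untested. With each library left out in turn, log2 fold changes ran from 1.12 to 1.93 for FLT1, from 3.28 to 8.15 for ROBO4, from 2.08 to 7.16 for CDH5, from -0.87 to 0.34 for TIE1, which was 0.31 without RUNX1::ERG replicate 2, from -0.0056 to 0.88 for ENG, which was -0.0045 without RUNX1::ERG replicate 1 and from -0.38 to 4.55 for CD99.

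Over all genes, 737 were called, 560 higher and 177 lower. Without a filter the number was 1500 (962 higher, 538 lower), with the replicate block 1733 (1082 and 651) and with the DESeq2 Wald test 1204 (403 lower), and library totals alone left 103 lower. With a library left out it ran from 354 to 1355, with 268 to 981 higher and 86 to 599 lower. The cause was not tested. The labels do not say that a replicate number marks a shared batch. Deviations of same-numbered libraries correlated with r = 0.26 over genes, and the block changed no call of the 10 genes, while VCL (0.49, adjusted p = 0.0138), NMRK2, ALOX15, EGFL7, NOS3 and HBZ were called under it.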
